A study of Mus musculus with 7 samples.

Results

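The 10 inflammatory genes described here are Il1a, Il1b, Il1rn, Tnf, Il6, Il10, Il12b, Nos2, Ptgs2 and Cxcl2, of 22367 protein-coding genes in the annotation. The genes were taken by name, and their binding sites were chosen by position alone: a PU.1 or MITF peak belonged to a gene when its center lay in the gene or within 30 kb of either end on mm9. By this rule the 10 genes held 84 PU.1 peaks in MPs, 81 at 36 h and 89 in OCs, and 10, 5 and 5 MITF peaks. Merging overlapping peaks of the 6 lists gave 107 sites, of 102884 genome-wide, and 1 of these sites lay in the windows of both Il1a and Il1b.

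Flushed bone marrow from C57BLACK6 mice aged 4 to 6 weeks was grown for 3 days with 50 ng/mL of CSF1, and these cells, which received CSF1 only, are the myeloid precursors (MPs). MPs were given 100 ng/mL of RANKL, the cytokine that drives them to become osteoclasts, for 36 h or for 72 h, and the 72 h cells are called OCs. CSF1 was kept at 50 ng/mL during RANKL treatment. For each precipitation 5 µg of antibody to PU.1 or MITF was used in all 3 conditions, and non-specific IgG served as a control in MPs only. This gave 7 ChIP-Seq libraries with 1 library per condition, so that no difference between conditions has a replicate check. The tests and the intervals of tags, scores and fold changes cover the sampling of tags only. Wilson intervals of shares treat genes, sites or peaks as independent draws, although the genes were chosen by name and neighboring peaks are not independent.

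PU.1 is an ETS-family transcription factor that macrophages and osteoclasts both need, and it binds purine-rich DNA around the letters GAGGAA. MITF, of the family of helix-loop-helix proteins with a leucine zipper, binds E-boxes such as CACGTG and CATGTG and acts with PU.1 at osteoclast genes. The genes described here are known mainly from macrophages that meet microbial products, where NF-kappaB and AP-1 switch them on at enhancers that PU.1 already occupies. Several of their products, among them TNF and interleukin-1, also promote osteoclast formation, while interleukin-10 and the interleukin-1 receptor antagonist restrain inflammation.

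The strongest values at these genes came from a few stretches of DNA, shown here as the plus strand of mm9, 151 bases around the site. The following 4 are sites with a MITF peak in MPs, at 36 h and in OCs. Capitals mark GAGGAA or its reverse complement TTCCTC and, at the Il1b site 9848 bp upstream, a match to the NF-kappaB letters. The fifth such site, near Tnf, touches an untranslated exon and is not printed.
Il1b 9848 bp upstream of its start, chr2:129206648-129206798: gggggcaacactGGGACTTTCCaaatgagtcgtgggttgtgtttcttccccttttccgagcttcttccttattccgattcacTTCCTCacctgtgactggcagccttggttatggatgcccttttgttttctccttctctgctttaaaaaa
Il1b 2378 bp upstream, chr2:129199178-129199328: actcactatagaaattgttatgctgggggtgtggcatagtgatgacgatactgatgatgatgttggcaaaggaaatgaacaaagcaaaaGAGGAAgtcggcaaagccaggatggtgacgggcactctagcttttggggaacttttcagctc
Il12b 21948 bp upstream, chr11:44191542-44191692: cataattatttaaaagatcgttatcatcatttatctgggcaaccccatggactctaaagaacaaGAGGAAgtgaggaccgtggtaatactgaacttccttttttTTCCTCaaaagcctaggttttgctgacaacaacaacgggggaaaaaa
Cxcl2 26822 bp upstream, chr5:91306000-91306150: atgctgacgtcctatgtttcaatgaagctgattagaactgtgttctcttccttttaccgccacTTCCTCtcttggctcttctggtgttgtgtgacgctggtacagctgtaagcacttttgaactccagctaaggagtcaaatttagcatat

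For comparison, the next 3 are sites whose MITF peak was in the MP list alone. They hold neither GAGGAA nor an E-box of the letters CACGTG or CATGTG, so they carry no capitals. Only these exact letters were sought, so other purine-rich stretches stay unmarked, and PU.1 had a peak at each site in every list.
Il1a 3797 bp downstream of its start, chr2:129131836-129131986: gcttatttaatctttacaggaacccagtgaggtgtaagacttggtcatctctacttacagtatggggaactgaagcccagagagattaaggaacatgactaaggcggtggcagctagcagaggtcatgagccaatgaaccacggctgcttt
Il1rn 9552 bp downstream, chr2:24201850-24202000: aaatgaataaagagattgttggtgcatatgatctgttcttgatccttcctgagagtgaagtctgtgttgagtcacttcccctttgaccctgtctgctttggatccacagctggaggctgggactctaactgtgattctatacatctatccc
Il6 22972 bp downstream, chr5:30362598-30362748: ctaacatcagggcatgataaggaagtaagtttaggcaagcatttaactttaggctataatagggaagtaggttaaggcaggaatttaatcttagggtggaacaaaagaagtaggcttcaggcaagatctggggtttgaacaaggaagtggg

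Each list gives a score per peak, which is the number of tags (sequenced fragments) in the peak scaled to a common library size, and the tags were recovered by dividing by the score of 1 tag. The implied library sizes were 5860000 to 6810000 tags for PU.1, 8760000 to 10270000 for MITF and 3120000 for IgG. The lowest peak of a PU.1 list had 6 or 7 tags and that of a MITF list 8 to 10, so weaker binding was not detectable. Peaks of the PU.1 and MITF lists of MPs and OCs had a median width of 150 bp, at most 1 peak of a list being narrower, those of the PU.1 36 h list a median of 190 bp (98 to 190) and those of the MITF 36 h list 169 bp (150 to 1387), and 36 h values are therefore set beside the others with this difference of width. The IgG list held 349 peaks and 0 of them lay in a window of the 10 genes. By the same windows only 249 of 22367 protein-coding genes, or 1.11%, had an IgG peak, so their absence here says little about these genes.

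All 10 genes had a PU.1 peak in MPs, at 36 h and in OCs, against 80.5%, 80.0% and 80.5% of all protein-coding genes. They had a median of 8, 7.5 and 9 PU.1 peaks, and all protein-coding genes had a median of 4 at each time. Their windows were a median of 67.3 kb long against 75.4 kb for all genes. The range ran from Ptgs2 with 2, 3 and 3 peaks to Tnf with 18, 17 and 19. The number per gene moved by at most 3 between conditions.

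A set of 23 other genes that macrophages induce in inflammation (chemokines such as Ccl2, Ccl3 and Cxcl10, growth factors such as Csf1 and Csf2, and regulators such as Nlrp3 and Tnfaip3) had a PU.1 peak at all 23 genes at each time, with a median of 8, 9 and 9. This set is not separate from the 10 genes. Lta and Ltb lie in the Tnf window and Cxcl1 in the Cxcl2 window, so some PU.1 and MITF peaks are counted in both. Of 11 cytokine genes known mainly from T cells, 9 had a PU.1 peak at each time, with a median of 3, 4 and 3, and the remaining 2, Il17a and Il17f, had none. Il3 had the most peaks of these 11 genes, 8 in MPs, 9 at 36 h and 8 in OCs.

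MITF peaks were fewer. They lay near 7 of the 10 genes in MPs (Il1a, Il1b, Il1rn, Tnf, Il6, Il12b and Cxcl2), or 70% with a 95% Wilson interval of 39.7 to 89.2, and near 4 at 36 h and in OCs (Il1b, Tnf, Il12b and Cxcl2), or 40% with an interval of 16.8 to 68.7. Among all protein-coding genes the shares were 24.5%, 17.9% and 21.6%. Il10, Nos2 and Ptgs2 had no MITF peak at any time. Of the 23 other inducible genes 13, 12 and 12 had a MITF peak, and of the 11 T cell cytokine genes 3, 2 and 3.

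**Figure D1:**
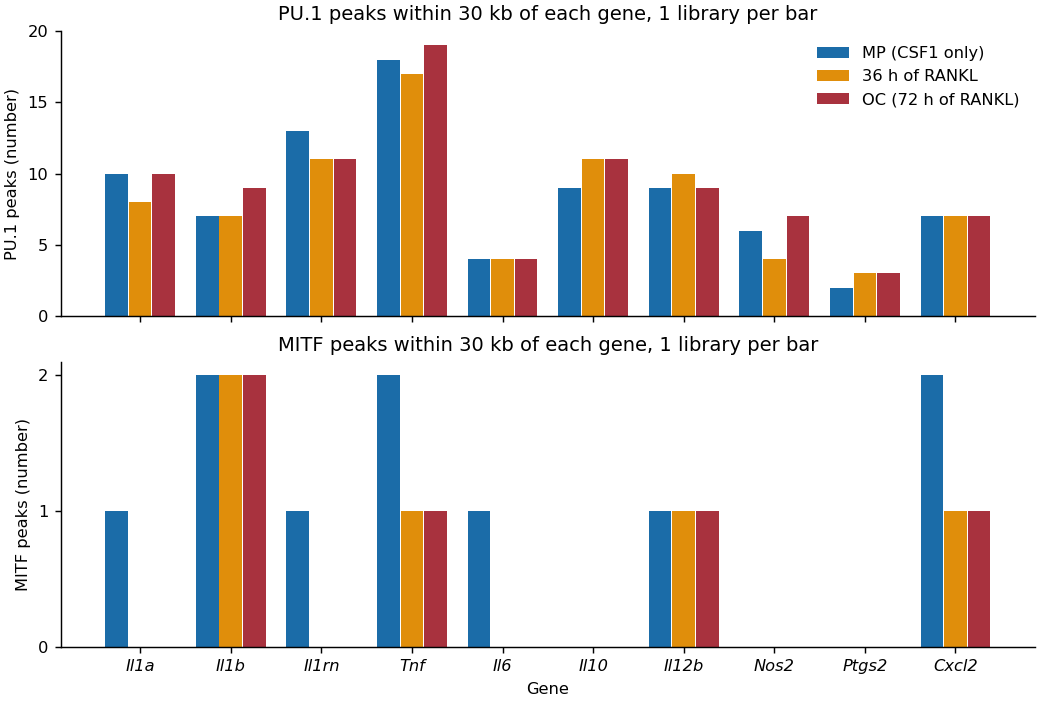
Number of PU.1 peaks (upper panel) and MITF peaks (lower panel) whose center lay in each gene or within 30 kb of it, with 1 library per bar for MPs, 36 h of RANKL and OCs. Tnf had the most PU.1 peaks, 17 to 19, and Ptgs2 the fewest, 2 to 3, and MITF peaks were left at Il1b, Tnf, Il12b and Cxcl2 after MPs.

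Most of the sites lay away from the genes themselves, as most of each window did. The windows added 30 kb on either side of a gene and had a median length of 67.3 kb. The shares of window length were not set beside the counts that follow. These counts therefore cannot tell a preference for places outside the genes from the shape of the windows. Of the 107 sites, 78 were intergenic, 23 intronic, 3 in an exon and 3 in an untranslated exon, and 13 lay within the body of a member gene. The nearest protein-coding start was that of a member at 68 sites, and at the rest it was that of another gene. This matters at Tnf, whose window also holds Aif1, Lst1, Ltb, Lta, Nfkbil1 and Gm16181, at Nos2, whose window holds Lgals9, and at Cxcl2, whose window holds Cxcl1 and Mthfd2l. Within 1 kb of the gene start, 5 of the 10 genes had a PU.1 peak in MPs, 6 at 36 h and 7 in OCs, against 29.6%, 31.6% and 32.2% of all protein-coding genes. For MITF it was 1, 0 and 0, against 1.52%, 0.818% and 1.11%.

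PU.1 was in all 3 lists at 63 of the 107 sites, or 58.9% (95% Wilson interval 49.4 to 67.7), against 50.5% of the 102372 sites genome-wide with a PU.1 peak. Another 8 sites (7.48%) were in the MP list alone, 6 (5.61%) in the 36 h list alone and 9 (8.41%) in the OC list alone. Genome-wide these shares were 11.1%, 9.03% and 10.3%. Sites in all 3 lists had a median of 34 tags in their highest library, and sites in 1 or 2 lists a median of 12, with a range of 6 to 36. Over all sites genome-wide with a PU.1 peak these medians were 27 and 9. Of the PU.1 peaks of the genes at 36 h, 67 of 81 or 82.7% had a partner in MPs, against 78.3% of all peaks. In OCs 72 of 89 or 80.9% had a partner in MPs, against 78.0%, and 71 or 79.8% had one at 36 h, against 75.3%. Since the lowest peaks had 6 or 7 tags, a site missing from a list cannot be called unbound there.

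Where 2 libraries shared a PU.1 peak, its tags were compared by an exact two-sided binomial test against the median ratio of all shared peaks, and a change was called where the p adjusted by Benjamini-Hochberg was under 0.05 and the difference at least 2-fold. From MPs to 36 h, 0 of 67 shared peaks of the 10 genes were called, against 1.05% of all 56335. From 36 h to OCs it was 0 of 71, against 0.0707% of 58008, and from MPs to OCs 0 of 72, against 0.156% of 60099. At an unadjusted p under 0.05 there were 8, 7 and 3 of the genes' shared peaks, beside 10.9%, 6.45% and 7.84% of all shared peaks, and the smallest adjusted p values of these exact tests were 0.0618, 0.309 and 0.163. The median log2 fold change of the members was 0.08, -0.04 and 0.01, beside 0 for all shared peaks by construction.

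**Figure D2:**
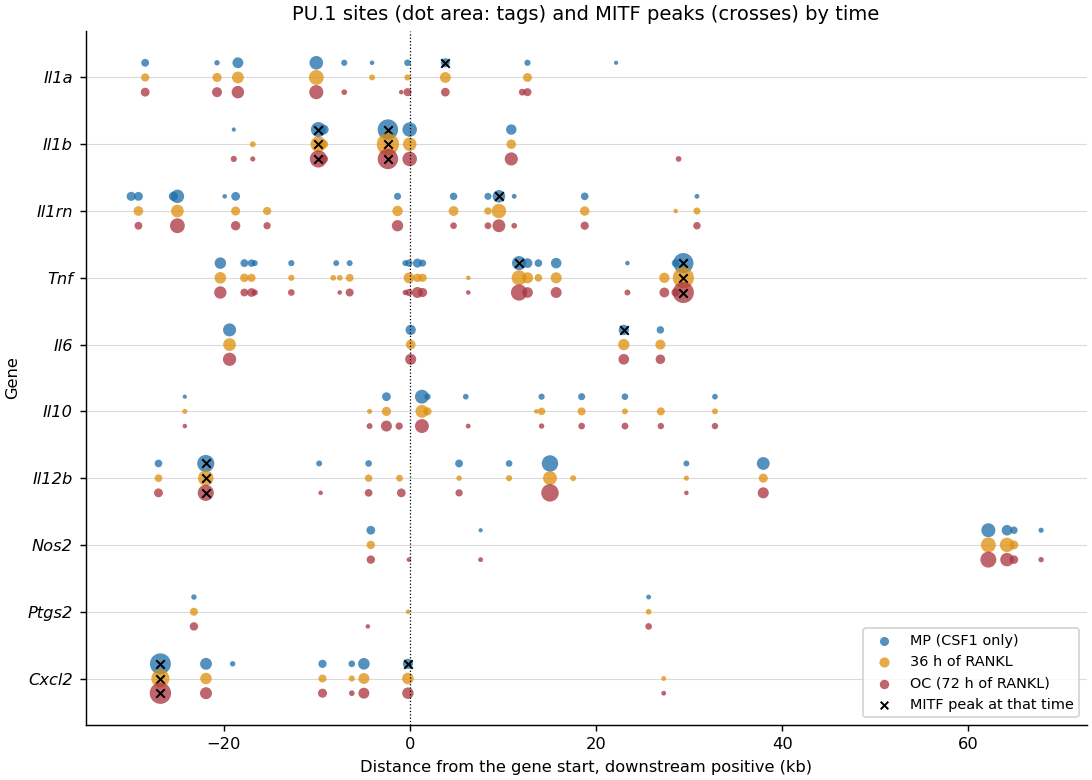
Map of the PU.1 sites of each gene by distance from its start (horizontal axis, kb, downstream positive), with rows of dots for MPs, 36 h and OCs whose area is proportional to the tags of the peak, and crosses where the same library time had a MITF peak. The site shared by Il1a and Il1b is drawn with Il1a. Large dots recur in all 3 colors at the same positions, and crosses fall on large dots at Il1b, Tnf, Il12b and Cxcl2.

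Il1b had 3 PU.1 sites of more than 60 tags in every library and 2 of the 5 sites that kept a MITF peak. This gene, which encodes the secreted cytokine interleukin-1 beta (chromosome 2, 129190306 to 129196875, minus strand), had in all 7, 7 and 9 PU.1 peaks. Its strongest lay 2378 bp upstream of the start, in an exon of the noncoding gene Gm14047, with a PU.1 score of 242.2 in MPs (142 tags), 248.3 at 36 h (168 tags) and 208.5 in OCs (142 tags). This placed it at the 99.3, 99.7 and 99.2 percentile of the scores of its lists. The site over the promoter, centered 36 bp upstream of the start, had PU.1 scores of 122.8, 93.1 and 105.7 (72, 63 and 72 tags). The site 9848 bp upstream had 131.3, 124.2 and 148.3 (77, 84 and 101 tags). At these 3 sites the counting intervals of MPs, 36 h and OCs overlapped.

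The 10882 bp downstream site of Il1b had 37, 31 and 59 tags, and its log2 fold change from 36 h to OCs was 0.81 (95% interval 0.16 to 1.49, exact binomial adjusted p = 0.517). A weaker site 9265 bp upstream had 32, 25 and 24 tags. The other sites of Il1b had at most 13 tags and were not in every list, except the site shared with Il1a.

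MITF was at 2 of the Il1b sites in every library. At 9848 bp upstream the MITF score was 15.6 in MPs (15 tags, 95% interval of the score 8.72 to 25.7), 77.9 at 36 h (80 tags, 61.7 to 96.9) and 33.1 in OCs (29 tags, 22.2 to 47.6). The 36 h value was the highest MITF score at any of the 10 genes, and its interval overlapped neither of the others. Within its own list, however, the site lay at the 66.1 percentile in MPs, 92.2 at 36 h and 95.9 in OCs. The median scores of these MITF lists were 12.5, 23.4 and 11.4. At 2378 bp upstream the MITF score was 15.6 in MPs (15 tags), 9.7 at 36 h (10 tags) and 19.4 in OCs (17 tags). The 36 h value there was the lowest that the MITF 36 h list holds.

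Relative to all shared MITF peaks, the site 9848 bp upstream of Il1b rose from MPs to 36 h by 1.62 on the log2 scale (95% interval 0.81 to 2.52, exact binomial adjusted p = 0.000364). It was the only called change among the 5 shared MITF peaks of the genes between these libraries, and 15.2% of all 2509 shared MITF peaks were called. The median MITF peak itself had 1.74 times the tags at 36 h, where the library sizes alone would give 1.067 times, and against the library sizes the log2 fold change was 2.32 (exact test, adjusted p = 8.62e-10). The 36 h peak was also wider, 243 bp against 150 bp. Per 100 bp it held 32.9 tags against 10.0 in MPs and 19.3 in OCs, a ratio from MPs to 36 h of 3.29 where the median over all shared peaks was 1.44, and 3.75% of the shared peaks had a ratio at least as high. These values per length were computed after the widths had been seen and have no test.

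The comparison from 36 h to OCs shares the 36 h library with the one above. In it the site 2378 bp upstream of Il1b was the only called MITF change of the 5, with a log2 fold change of 1.85 (95% interval 0.64 to 3.14, exact binomial adjusted p = 0.0180) against the median of all shared peaks, of which 9.57% of 2352 were called. With the library sizes as the reference it was 0.996 (exact test, adjusted p = 0.161) and was no longer called. The site 9848 bp upstream had a log2 fold change of -0.38 against the median (exact test, adjusted p = 0.492) and, against the library sizes, fell by 1.23 on the log2 scale (adjusted p = 0.000238). Between MPs and OCs, whose lists have equal widths, 0 of 5 shared MITF peaks of the genes were called by the exact binomial test, against 0.0% of 2844. At the site 9848 bp upstream this difference was 1.19 (95% interval 0.25 to 2.20, exact test, unadjusted p = 0.00946, adjusted p = 0.978), 1 of 92 shared peaks with an unadjusted p under 0.05.

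**Figure D3:**
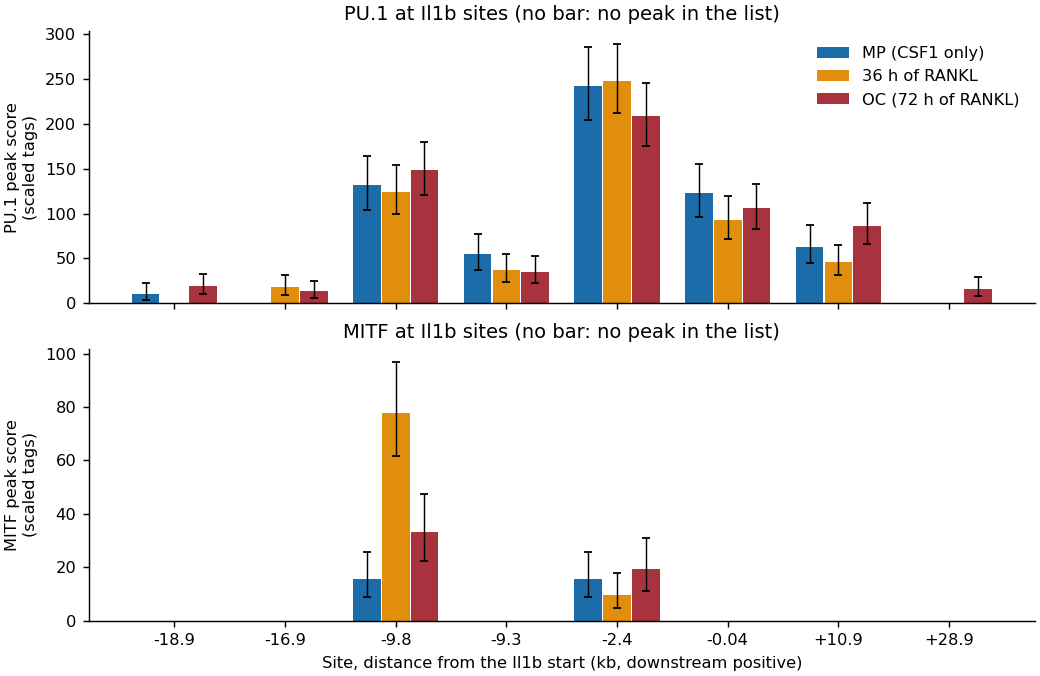
PU.1 (upper panel) and MITF (lower panel) peak scores, in scaled tags, at the sites of Il1b by distance from its start in kb, with 1 library per bar and exact Poisson 95% intervals of the tags as error bars. The PU.1 bars are of like height in MPs, at 36 h and in OCs at the strong sites, and the MITF bar at 36 h reaches 77.9 at the site 9.8 kb upstream.

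Il1a, which encodes interleukin-1 alpha and lies beside Il1b (chromosome 2, 129125346 to 129135708, minus strand), had 10, 8 and 10 PU.1 peaks. Its strongest lay 10069 bp upstream with PU.1 scores of 107.5, 110.9 and 99.9 (63, 75 and 68 tags). The intronic site 3797 bp downstream of the start had 28, 40 and 26 PU.1 tags and a MITF peak of 9 tags in MPs only. A site 20738 bp upstream had 10, 29 and 34 PU.1 tags, a log2 fold change of 1.57 from MPs to OCs (95% interval 0.52 to 2.76) that did not pass the exact binomial test over all shared peaks (adjusted p = 0.163). The strongest sites of Il1a thus lay upstream of the gene, and its promoter site, 269 bp upstream, was weaker, with 15, 13 and 22 tags.

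Il1rn, which encodes the interleukin-1 receptor antagonist (chromosome 2, 24192373 to 24207014, plus strand), had 13, 11 and 11 PU.1 peaks and 0 within 1 kb of its annotated gene start. An intronic site 8376 bp downstream lay only 59 bp from another Il1rn transcript start. PU.1 was there in every list, with 17, 19 and 16 tags. The intronic site 9552 bp downstream, which is 1057 bp from a further Il1rn transcript start, had PU.1 scores of 92.1, 104.9 and 83.7 (54, 71 and 57 tags) and a MITF peak of 10 tags in MPs only, and a site 24997 bp upstream had 105.8, 81.3 and 110.1 (62, 55 and 75 tags). The site 1340 bp upstream had 17, 37 and 44 tags, with a log2 fold change from MPs to OCs of 1.18 (95% interval 0.34 to 2.08, exact binomial adjusted p = 0.235).

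Tnf encodes tumor necrosis factor (chromosome 17, 35336326 to 35338952, minus strand), and its window was the richest, with 22 sites of which 12 had PU.1 in every list. Its own sites were modest. The promoter site 112 bp upstream had 18, 39 and 18 PU.1 tags, a log2 fold change of 1.03 from MPs to 36 h (exact binomial adjusted p = 0.232) and of -1.23 from 36 h to OCs (adjusted p = 0.309), and 2 intronic sites at 795 and 1355 bp downstream had 28, 25 and 41 tags and 17, 23 and 28 tags. The strongest site of the window lay 29372 bp downstream of the Tnf start in an untranslated exon of Aif1, 4 bp from the start of that gene, with PU.1 scores of 237.1, 224.7 and 223.2 (139, 152 and 152 tags). MITF scores there were 20.8, 28.2 and 14.8 (20, 29 and 13 tags), with log2 fold changes of -0.26 from MPs to 36 h and -0.07 from 36 h to OCs against all shared peaks, neither called. The fold change from MPs to 36 h was negative although the score rose, as it is relative to the median ratio of 1.74. Another MITF peak, of 9 tags in MPs only, lay 11717 bp downstream, nearest to Lst1, where PU.1 had 68, 76 and 90 tags.

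Il6, which encodes interleukin-6 (chromosome 5, 30339701 to 30346508, plus strand), had 4 PU.1 sites, and each of the 4 was in all 3 lists. The strongest lay 19390 bp upstream with scores of 98.9, 82.8 and 88.1 (58, 56 and 60 tags), and the promoter site 72 bp downstream of the start had 61.4, 47.3 and 61.7 (36, 32 and 42 tags). The site 22972 bp downstream had 36, 44 and 39 PU.1 tags and a MITF peak of 9 tags in MPs only, and the site 26904 bp downstream had 19, 34 and 31.

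Il12b encodes the subunit p40 that interleukin-12 and interleukin-23 share (chromosome 11, 44213565 to 44227535, plus strand), and it had 9, 10 and 9 PU.1 peaks. The site 21948 bp upstream had PU.1 scores of 170.6, 121.2 and 130.7 (100, 82 and 89 tags) and MITF scores of 33.2, 37.0 and 28.5 (32, 38 and 25 tags), and its MITF score in MPs was the highest of the 10 genes at that time. No MITF change there was called against the median ratio of all shared peaks. The log2 fold changes were -0.55 from MPs to 36 h (95% interval -1.27 to 0.18) and -0.12 from MPs to OCs (95% interval -0.93 to 0.69). From MPs to 36 h that median was 1.74, where the library sizes give 1.067, and the score itself rose. The site 15041 bp downstream was of like strength for PU.1, with 156.9, 97.6 and 152.7 (92, 66 and 104 tags), and had no MITF peak.

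The site 37958 bp downstream of the Il12b start, where the nearest start is that of Ublcp1, came nearest to a called PU.1 change. It had 56 tags in MPs, 28 at 36 h and 42 in OCs, and its log2 fold change from MPs to 36 h was -1.08 (95% interval -1.79 to -0.40, exact binomial adjusted p = 0.0618). Against the ratio of the library sizes it was -1.21 (exact test, adjusted p = 0.0176) and was called. All 3 strong Il12b sites were lowest at 36 h in tags.

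Cxcl2, a chemokine that attracts neutrophils (chromosome 5, 91332897 to 91334935, plus strand), had 7 PU.1 peaks at each time. The site 26822 bp upstream had the highest PU.1 score of the 10 genes in MPs and OCs, 255.9 and 229.1 (150 and 156 tags), with 165.6 at 36 h (112 tags), a log2 fold change from MPs to 36 h of -0.50 (95% interval -0.87 to -0.14, exact binomial adjusted p = 0.155). The nearest start to it is that of Cxcl1, another neutrophil chemokine, 14192 bp away. It was among the strongest sites in every PU.1 list, at the 99.5, 97.9 and 99.5 percentile. MITF had scores of 14.5, 23.4 and 25.1 there (14, 24 and 22 tags), with a log2 fold change against all shared peaks of -0.02 from MPs to 36 h (95% interval -1.03 to 1.05), of 0.96 from 36 h to OCs (0.05 to 1.85, exact binomial adjusted p = 0.132) and of 0.89 from MPs to OCs (-0.14 to 1.97). With only peaks of at least 2 times the lowest score it was called from 36 h to OCs (log2 fold change 1.196, exact binomial adjusted p = 0.0483). The promoter site 226 bp upstream of Cxcl2 had 35, 46 and 45 PU.1 tags and, in MPs only, a MITF peak of 9 tags, the only MITF peak within 1 kb of a start of the 10 genes.

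Il10, which encodes the anti-inflammatory interleukin-10 (chromosome 1, 132916422 to 132921551, plus strand), had 9, 11 and 11 PU.1 peaks and no MITF peak. Its strongest site was intronic, 1279 bp downstream of the start, with PU.1 scores of 112.6, 84.3 and 96.9 (66, 57 and 66 tags), and the site 2535 bp upstream had 26, 29 and 41 tags. Its remaining sites had at most 23 tags.

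Nos2 encodes the inducible nitric oxide synthase (chromosome 11, 78734289 to 78773756, plus strand), and it had 6, 4 and 7 PU.1 peaks and no MITF peak. Near its own start there were 26, 24 and 24 tags at 4213 bp upstream and a peak of 7 tags at 126 bp upstream in OCs alone. The strongest peaks of the window belonged to the neighboring Lgals9: an intronic site 62148 bp downstream of the Nos2 start with 67, 76 and 87 tags, and a site 64148 bp downstream in an untranslated exon with 38, 71 and 62 tags, whose log2 fold change from MPs to 36 h was 0.82 (95% interval 0.23 to 1.43, exact binomial adjusted p = 0.153).

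Ptgs2, which encodes the inducible cyclooxygenase that makes prostaglandins (chromosome 1, 151947254 to 151955140, plus strand), had the weakest PU.1 binding of the 10 genes. Its strongest site, 23220 bp upstream in an exon of 7530420F21Rik, had PU.1 scores of 17.1, 32.5 and 35.2 (10, 22 and 24 tags), and a site 25642 bp downstream had 8, 11 and 15 tags. Its promoter had a peak in the 36 h list alone, 217 bp upstream with 7 tags. It had no MITF peak.

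Ordered by their highest PU.1 score in MPs, the genes ran Cxcl2 (255.9), Il1b (242.2), Tnf (237.1), Il12b (170.6), Nos2 (114.3), Il10 (112.6), Il1a (107.5), Il1rn (105.8), Il6 (98.9) and Ptgs2 (17.1). The counting interval of each gene overlapped that of the next in this order, except between Il6 (75.1 to 127.9) and Ptgs2 (8.18 to 31.4), and those of Cxcl2, Il1b and Tnf lay above those of all genes from Nos2 on. The median of these highest scores was 113 in MPs, 112 at 36 h and 119 in OCs. These are levels of the strongest peak of a window, and at Tnf, Nos2, Cxcl2 and, for the upstream site, Il1rn that peak lay nearest to the start of another gene.

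MITF never occurred at these genes without PU.1: all 10, 5 and 5 MITF peaks overlapped a PU.1 peak of the same time, as did 97.9%, 93.8% and 93.3% of all MITF peaks. Seen from PU.1, MITF overlapped 10 of 84 PU.1 peaks in MPs or 11.9% (95% Wilson interval 6.60 to 20.5), 5 of 81 at 36 h or 6.17% (2.67 to 13.6) and 5 of 89 in OCs or 5.62% (2.42 to 12.5). Over all PU.1 peaks the shares were 6.95%, 4.62% and 5.38%, within these intervals. The genes had 12 PU.1 peaks in each list among the 10% with the highest scores (above 98.9, 87.2 and 92.5), and 6, 5 and 5 of them carried MITF, against 55.6%, 38.8% and 41.8% of all such peaks. The highest PU.1 score without a MITF peak was 156.9 in MPs, 112.3 at 36 h and 152.7 in OCs, the first and last of these at the site 15041 bp downstream of Il12b.

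The 10 sites with MITF fell into 5 with a peak in MPs, at 36 h and in OCs and 5 with a peak in MPs alone. Of the MITF MP peaks genome-wide 46.4% had a partner at 36 h and 52.5% in OCs, and all 5 MITF peaks of the genes at 36 h and in OCs had partners at the other times, against 70.9% of 36 h peaks with a partner in MPs and, for OC peaks, 64.0% in MPs and 52.9% at 36 h. The 5 at every time were the 2 Il1b sites and those near Tnf, Il12b and Cxcl2 described above. The 5 in MPs alone, at Il1a, Il1rn, Il6, Cxcl2 and near Tnf, had 9 or 10 tags each, and 9 tags is the lowest the MITF MP list holds. Genome-wide, 2062 MITF MP peaks had no partner at 36 h or in OCs, with a median of 10 tags, and the 2004 with a partner at both times had a median of 17. With only peaks of at least 2 times the lowest score, 2 MITF peaks of the genes were left in MPs, near Tnf and Il12b. Whether MITF left these 5 sites under RANKL can thus not be told at this depth.

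**Figure D4:**
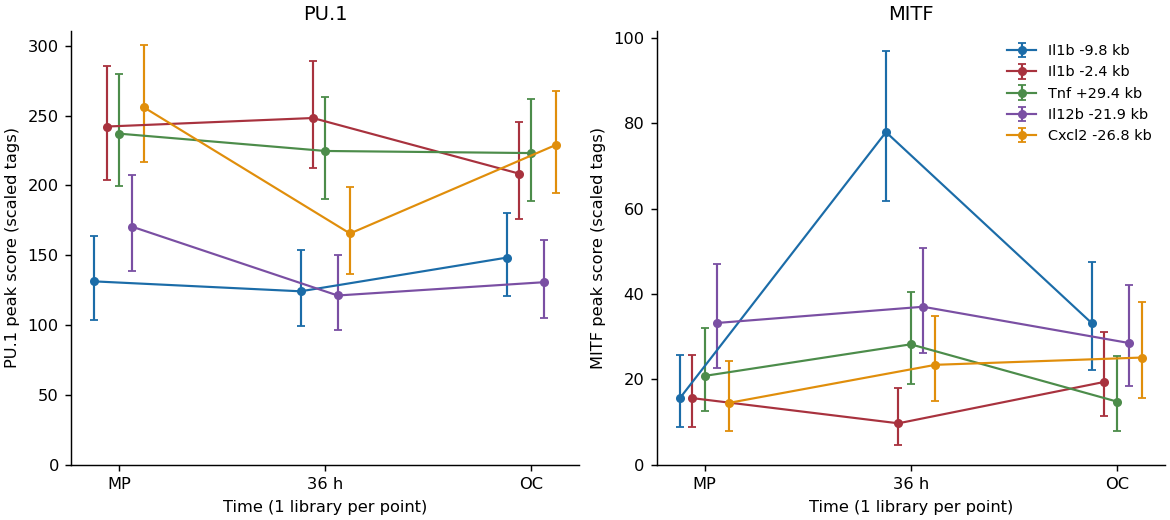
PU.1 (left) and MITF (right) peak scores, in scaled tags, at the 5 sites with a MITF peak in MPs, at 36 h and in OCs, with 1 library per point and exact Poisson 95% intervals of the tags as error bars. MITF at the Il1b site 9.8 kb upstream goes from 15.6 to 77.9 and then 33.1, while PU.1 at that site stays between 124.2 and 148.3. The median scores of the whole MITF lists were 12.5, 23.4 and 11.4.

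Whether MITF and PU.1 changed by different ratios was tested at these 5 sites with an exact conditional test on the 4 tag counts, against the median ratios of both antibodies. From MPs to OCs it called 0 of 5, and 0 of 2819 sites genome-wide or 0.0%, with 58 of these at an unadjusted p under 0.05. The same test from MPs to 36 h and from 36 h to OCs was added after the tags had been seen. From MPs to 36 h the MITF ratio at the Il1b site 9848 bp upstream exceeded the PU.1 ratio by 1.50 on the log2 scale (adjusted p = 0.0175, exact test), where 219 of 2478 sites or 8.84% were called. From 36 h to OCs it did so at the Il1b site 2378 bp upstream by 2.17 (adjusted p = 0.0111, exact test), where 110 of 2324 or 4.73% were called.

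The letters GAGGAA, on either strand within 75 bp of the peak center, were in 47 of 84 PU.1 peaks of the genes in MPs (56.0%), 39 of 81 at 36 h (48.1%) and 43 of 89 in OCs (48.3%), beside 55.0%, 55.6% and 55.8% of all PU.1 peaks. The AP-1 letters TGANTCA were in 14 of 84 (16.7%), 13 of 81 (16.0%) and 13 of 89 (14.6%), beside 9.56%, 10.8% and 8.57%. At Il10 the sites 1279, 1873, 6252, 13574, 14137 and 18442 bp downstream of its start held them. The remaining sites with these letters lay at Il1rn, Tnf, Il6, Il12b, Nos2 and Cxcl2. The NF-kappaB letters were in 2 peaks of the genes in each PU.1 list, beside 0.727%, 1.04% and 0.916% of all PU.1 peaks. The C/EBP letters TTGCNNAA were in 10.7%, 11.1% and 10.1%, beside 8.47%, 7.79% and 8.34%, the ETS-IRF composite in 7.14%, 4.94% and 5.62%, beside 6.99%, 5.87% and 6.33%, and the ISRE in 4.76%, 3.70% and 3.37%, beside 3.15%, 2.77% and 2.93%. At the sites printed above, GAGGAA was present in each of the 4 with MITF at every time. Over the whole set it was in 4 of the 5 sites with MITF at every time, 0 of the 5 with MITF in MPs alone and 49 of the 97 without MITF. These counts are small and were not tested, and no genome-wide share was computed for these patterns of MITF. The MITF peaks in MPs alone were also near the lowest tags of their list.

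Neither E-box was within 75 bp of the center at any of the 10 MITF sites of the genes. In all MITF peaks either E-box was in 13.2% in MPs, 11.4% at 36 h and 11.8% in OCs, beside 13.4%, 13.1% and 13.2% of all PU.1 peaks, while GAGGAA was in 67.3%, 68.7% and 67.2% of them. E-boxes were thus no more frequent in the MITF lists than in the PU.1 lists, and these lists do not check the MITF antibody by its letters. A match of letters is a description of the sequence and not evidence of binding.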

How the data were processed

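ChIP-Seq peaks of PU.1 and MITF in MPs, at 36 h and in OCs and of IgG in MPs were analysed. Per the labels and the study's methods, the authors used CASAVA 1.8, mapped reads with Bowtie2 to mm9 and called peaks with HOMER, whose versions and settings are not given in the sources used here. The deposited value is the peak score, tags scaled to a common library size. Every score was a multiple of its list's score for 1 tag (misfit at most 0.0501), which gave the tags, and library sizes assume HOMER's default scale of 10000000 tags. An overlap of 1 bp or more paired the peaks of 2 lists, genes and exons were taken from GENCODE vM1 on mm9, and distances run from the gene start. Samples were grouped by their labels.

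Tags were tested by exact two-sided binomial tests conditional on their sum, with Benjamini-Hochberg adjustment over all shared peaks, in Python 3.11.15 with numpy 2.4.6, pandas 2.3.3, scipy 1.17.1 and matplotlib 3.10.9. The binomial test was checked on simulated tags set up as MPs against OCs. That check does not cover the 36 h comparisons, where peak widths differ and the called MITF changes were found. Errors are exact Poisson intervals of the tags and Wilson intervals of shares, both at 95%. All 10 genes were named, with each gene's strongest PU.1 site, every site with MITF and every called site. Other sites, such as those at the promoters, and the printed Il1b site 2378 bp upstream were chosen after their values had been seen. The genes, gene lists and motifs were chosen with earlier results of these data known. Alternatives were windows of 10 and 100 kb, the authors' nearest gene, a score of at least 2 times the lowest, lists cut to equal length, peak centers within 100 bp, library sizes as the reference ratio and, added later, 36 h peaks of at most 300 bp.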

Additional observations from a re-analysis of the deposited data

Results flagged for a closer look

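At the Il1b site 9848 bp upstream, MITF tags went from 15 in MPs to 80 at 36 h and PU.1 tags from 77 to 84. Each ratio was taken relative to the median ratio of its antibody, 1.74 for MITF and 1.01 for PU.1. On that basis MITF exceeded PU.1 by 1.50 on the log2 scale in an exact conditional test (adjusted p = 0.0175). The site was picked out because the antibodies differed under the same contrast. The MITF 36 h peak was 243 bp wide and the MP peak 150 bp, and the part of this width in the difference was not tested.

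At the Il1b site 2378 bp upstream, MITF tags went from 10 at 36 h to 17 in OCs and PU.1 tags from 168 to 142. Relative to the median ratios, 0.471 for MITF and 1.05 for PU.1, MITF exceeded PU.1 by 2.17 on the log2 scale (exact test, adjusted p = 0.0111). This site was picked out in the same way. For MITF the library sizes give a ratio of 0.852 in place of 0.471.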

How the results depend on the processing

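No paired analysis was possible because each condition has 1 library. For the same reason no library could be left out. The number of PU.1 peaks in MPs, at 36 h and in OCs followed the window, with 40, 41 and 45 within 10 kb and 173, 167 and 178 within 100 kb, and the authors' nearest gene gave 50 at 36 h. MITF peaks were 6, 2 and 2 within 10 kb and 16, 9 and 9 within 100 kb, and the nearest gene gave 3 at 36 h and 2 in OCs. In MPs they numbered 2 with scores of at least 2 times the lowest and 5 with lists cut to equal length, and the genes with such a peak numbered 2 and 4. At 36 h 1 gene had a MITF peak within 10 kb, 8 within 100 kb and 2 by the nearest gene, and in OCs 1, 7 and 1. With the higher score limit, 50% of the MITF 36 h peaks and 25% of the MITF OC peaks overlapped a MITF MP peak, and MITF overlapped 2.94% of the PU.1 MP peaks, or 5.95% with equal lists. Against the library sizes, 1 PU.1 peak of the genes was called from MPs to 36 h (1005 genome-wide), and 843 MITF peaks genome-wide were called from MPs to 36 h and 900 from 36 h to OCs. With the higher score limit, 0 MITF peaks of the genes and 86 of all were called from MPs to 36 h, the Il1b peak in MPs being under the limit, and 68 of all from 36 h to OCs, where the Il1b site 2378 bp upstream was under the limit and the Cxcl2 site 26822 bp upstream was called instead (log2 fold change 1.196, exact test, adjusted p = 0.0483). The test of MITF against PU.1 ratios called 0 sites of the genes from MPs to OCs, 1 from MPs to 36 h and 1 from 36 h to OCs. With the higher score limit the MITF peaks numbered 2, 4 and 4 in MPs, at 36 h and in OCs. In the main counts they numbered 10, 5 and 5, so the order of MPs and later times reversed. MITF fold changes from MPs to 36 h near Tnf, Il12b and Cxcl2 were negative against the median, though the scaled scores rose. Of the counts and shares under all alternatives, 98 did not move by more than 1.5 times or their counting interval and 38 did. Of the values of single genes and sites, 49 stayed in this sense, 37 moved, all 37 being highest scores under the windows of 10 and 100 kb, and 1 lost its call: the MITF change from 36 h to OCs at the Il1b site 2378 bp upstream went from 1.85 to 0.996 (exact test, adjusted p = 0.161) against the library sizes. The lowest MITF peaks had 8 to 10 tags, so gains or losses near this number were not detectable.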
